A study of Mus musculus with 2 samples.

Results

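The fibroblast growth factor (FGF) system of the newborn mouse cortex was described through 33 genes, taken from 55536 annotated genes by their symbols: 22 FGF ligands, the receptor kinases Fgfr1 to Fgfr4, the kinase-less receptor Fgfrl1, the feedback inhibitors Spry1, Spry2 and Spry4 of the Sprouty family, and the related inhibitors Spred1 to Spred3. All samples were left cerebral cortex of male B6CASTF1/J mice, a first-generation cross of C57BL/6 and CAST, taken at 4 days of age with no treatment. There were 2 libraries of total RNA, 1 per tissue sample, numbered replicate 2 and replicate 1, each made from 300 ng of RNA with ERCC spike-in RNAs. They form 1 group, so the data give levels and the difference between 2 libraries, and no contrast of conditions. The labels list separate tissue samples under a shared donor entry, so the difference between them may be technical in part. A p-value here sets that difference against counting error alone and does not measure the spread between samples.

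FGFs are small proteins that act in several ways. Secreted FGFs bind receptor tyrosine kinases together with heparan sulfate, and the receptors signal through the adaptor Frs2 to the Ras-ERK cascade. Sprouty and Spred proteins damp that cascade and belong to its feedback control. A separate branch, Fgf11 to Fgf14, is not secreted, stays inside the cell and binds voltage-gated sodium channels of neurons. In the developing cortex, FGF signalling is known for its part in patterning, in the growth of progenitors and in the formation of astrocytes.

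Replicate 2 held 29511737 expected counts and replicate 1 held 26897687, of which spike-ins took 0.351% in replicate 2 and 0.323% in replicate 1. Expected counts are reads assigned to a gene, and TPM sets them per length against all transcripts of a library, so that levels of different genes can be compared. Detection meant at least 1 TPM in both libraries. Of the 33 genes, 18 (54.5%) were detected, against 13084 of 22028 protein-coding genes (59.4%). Their median was 2.7 TPM in replicate 2 and 3.77 TPM in replicate 1. The median of the mean levels was 3.07 TPM, against 4.18 TPM over all protein-coding genes, and 15 of the 33 lay above 4.18 TPM. Rescaling TPM over protein-coding genes alone multiplied levels by about 1.88 and moved the mean of the 2 library medians, 3.24 TPM, to 6.09 TPM. Markers of cortical excitatory neurons were present, with 5 of them summing to 496 TPM in replicate 2 and 560 TPM in replicate 1.

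**Figure D1:**
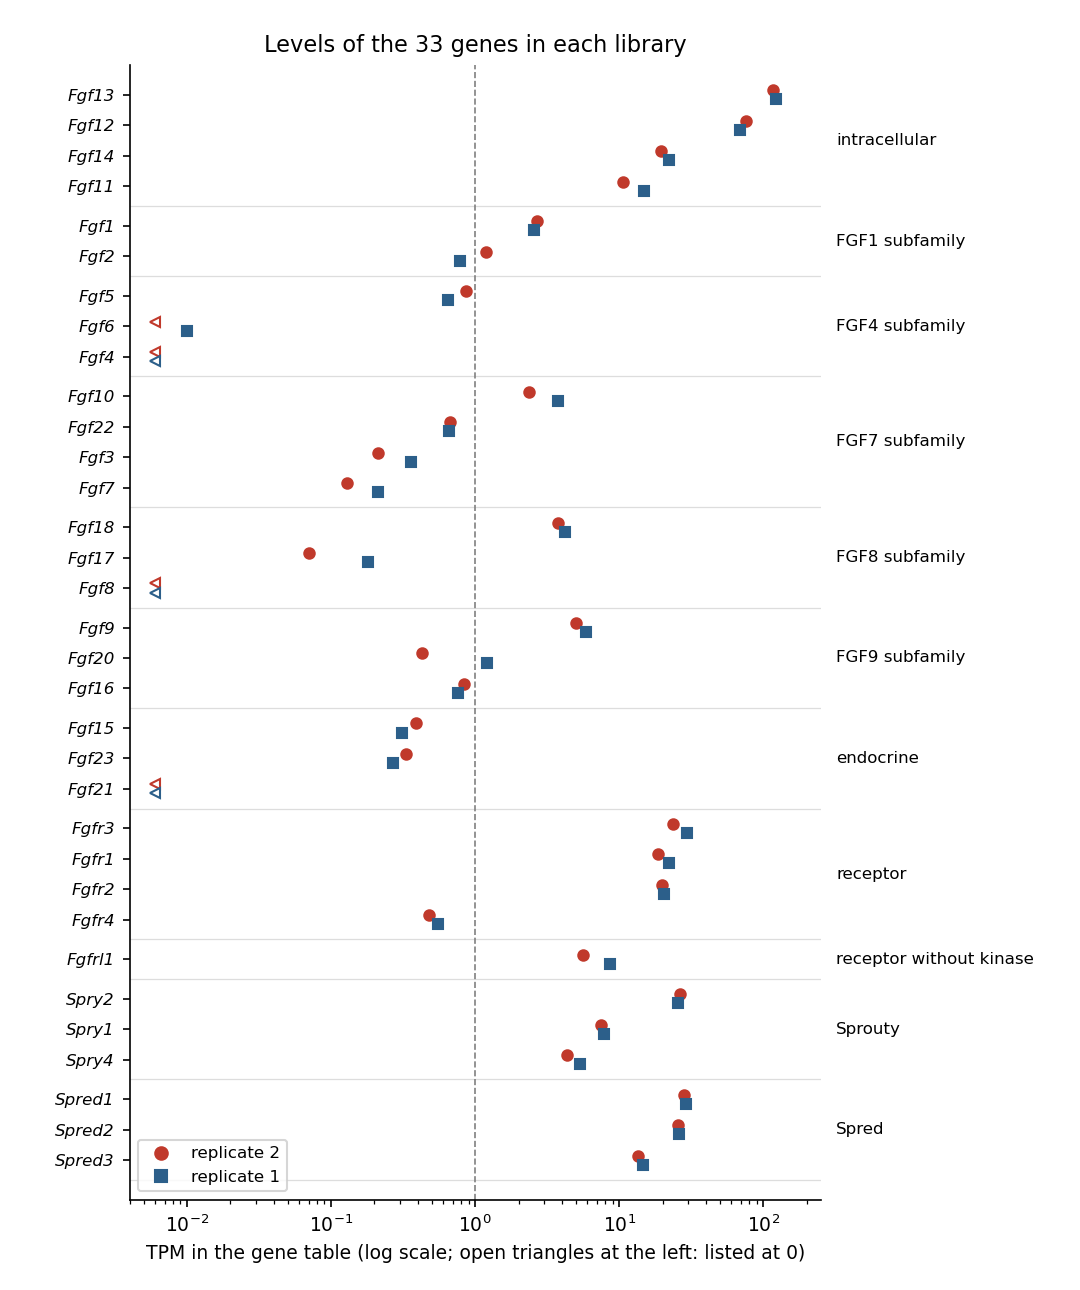
TPM of the 33 genes (log axis) in replicate 2 (red circles) and replicate 1 (blue squares), grouped by branch of the family. Open triangles mark values listed at 0 and the dashed line is the detection level of 1 TPM. The intracellular genes Fgf13 and Fgf12 lie farthest to the right, and Fgf4, Fgf8 and Fgf21 are at 0 in both libraries.

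Intracellular FGFs made up most of the ligand transcripts. The genes Fgf11 to Fgf14 summed to 223 TPM in replicate 2 and 227 TPM in replicate 1, while the 18 secreted ligands summed to 18.9 TPM in replicate 2 and 21.8 TPM in replicate 1. The intracellular share of ligand TPM was thus 92.2% in replicate 2 and 91.3% in replicate 1 (91.7 ± 0.66%, SD, n = 2). All 4 intracellular genes were detected, against 4 of the 18 secreted ones, namely Fgf9, Fgf18, Fgf10 and Fgf1.

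Fgf13 (ENSMUSG00000031137.17, chrX:59062145-59568071, minus strand, mm10), which binds sodium channels and microtubules, was highest of all members. It stood at 117 TPM in replicate 2 and 122 TPM in replicate 1 (119 ± 2.96 TPM, SD, n = 2), above 96.5% of protein-coding genes. Fgf12 (ENSMUSG00000022523.10, chr16:28160098-28753068, minus strand), a sodium channel modulator, stood at 75.8 TPM in replicate 2 and 68.9 TPM in replicate 1. Both libraries placed Fgf13 first and Fgf12 second, with no overlap of their ranges. Fgf14 (ENSMUSG00000025551.13, chr14:123977907-124677127, minus strand), which acts at the axon initial segment, stood at 19.6 TPM in replicate 2 and 22.1 TPM in replicate 1. Fgf11 (ENSMUSG00000042826.13, chr11:69796068-69801857, minus strand) was the lowest of the branch, with 10.6 TPM in replicate 2 and 14.8 TPM in replicate 1. Even so, the lower Fgf11 value lay above every value of every secreted ligand. Whether a level reflects the number of cells that express a gene or the RNA per cell cannot be told apart in tissue RNA.

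The intracellular genes share a core and differ in their first coding exon, so both are shown here, the core for how alike the genes are and the starts because they define the protein forms. A second coding exon of 111 bases occurs in each of the 4 genes, and 57 of these bases (51.4%) are identical in all 4. Any pair of genes shared 72 to 80 of them. In the following lines capitals mark the bases identical in all 4 genes.

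Fgf11 second coding exon: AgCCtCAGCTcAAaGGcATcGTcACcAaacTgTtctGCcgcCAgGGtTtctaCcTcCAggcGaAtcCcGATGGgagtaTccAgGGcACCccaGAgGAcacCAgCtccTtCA

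Fgf12 second coding exon: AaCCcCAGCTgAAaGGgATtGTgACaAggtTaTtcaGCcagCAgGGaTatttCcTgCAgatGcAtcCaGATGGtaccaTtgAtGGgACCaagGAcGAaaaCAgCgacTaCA

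Fgf13 second coding exon: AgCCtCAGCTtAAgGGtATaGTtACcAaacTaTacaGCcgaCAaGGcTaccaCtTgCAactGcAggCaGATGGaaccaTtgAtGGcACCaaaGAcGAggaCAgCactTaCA

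Fgf14 second coding exon: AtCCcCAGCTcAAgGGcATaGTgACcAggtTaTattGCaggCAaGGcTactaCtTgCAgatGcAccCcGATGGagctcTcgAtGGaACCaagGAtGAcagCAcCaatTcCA

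These exons lie at chr11:69799666-69799776, chr16:28398278-28398388, chrX:59131840-59131950 and chr14:124136182-124136292, all on the minus strand of mm10. The starts of the coding sequences are next, 60 bases each, read from the GENCODE M21 transcripts. Capitals mark the first coding exon, and lower case marks bases that belong to the second. In Fgf13-203 the second coding exon begins with a further g in front of the Fgf13 exon printed above.

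Fgf11-202: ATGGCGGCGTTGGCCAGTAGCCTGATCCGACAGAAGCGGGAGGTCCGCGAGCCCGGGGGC

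Fgf12-201: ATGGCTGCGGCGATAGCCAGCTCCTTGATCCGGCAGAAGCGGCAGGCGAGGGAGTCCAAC

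Fgf13-201: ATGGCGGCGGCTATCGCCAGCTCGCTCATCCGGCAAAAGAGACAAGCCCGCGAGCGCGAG

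Fgf14-201: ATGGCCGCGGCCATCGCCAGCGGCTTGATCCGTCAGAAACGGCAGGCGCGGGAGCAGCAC

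Fgf12-205: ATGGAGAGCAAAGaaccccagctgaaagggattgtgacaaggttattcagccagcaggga

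Fgf13-203: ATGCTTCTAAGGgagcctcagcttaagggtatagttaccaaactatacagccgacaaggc

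Fgf14-202: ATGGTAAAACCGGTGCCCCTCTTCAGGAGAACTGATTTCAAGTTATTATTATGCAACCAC

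The first 4 of these begin with a long coding exon of 187 to 199 bases, and Fgf12-201, Fgf13-201 and Fgf14-201 are identical at 38 of the 60 bases shown. Fgf12-205 and Fgf13-203 instead begin with exons that give 13 and 12 coding bases, and Fgf14-202 with an unrelated exon of 208. The coding sequences span 225 codons in Fgf11-202, 243 in Fgf12-201, 245 in Fgf13-201, 247 in Fgf14-201, 181 in Fgf12-205, 187 in Fgf13-203 and 252 in Fgf14-202.

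By share of a gene's TPM, the leading start differed between the genes. Fgf12-205, with the short first exon, held 42.8% of the Fgf12 TPM in replicate 2 and 44.2% in replicate 1. Fgf12-201, with the long one, held 25.3% in replicate 2 and 24.6% in replicate 1. By reads this order was reversed: Fgf12-205, 831 bases long, took 457 in replicate 2 and 380 in replicate 1. Fgf12-201, 4137 bases long, took 1492 in replicate 2 and 1164 in replicate 1. The lead of Fgf12-205 thus rests on its short annotated length. A transcript with no coding sequence, Fgf12-206, held 23.8% in replicate 2 and 22.7% in replicate 1. In Fgf14 the far start prevailed: Fgf14-202 held 90.9% in replicate 2 and 87.9% in replicate 1, and Fgf14-201 the rest. In Fgf13 the long form prevailed, with Fgf13-201 at 56.5% in replicate 2 and 57.3% in replicate 1. The 5 Fgf13 transcripts that start most distally, Fgf13-203 and Fgf13-205 among them, summed to 30.3% in replicate 2 and 29.9% in replicate 1. Fgf11-202 held 86.8% of Fgf11 in replicate 2 and 73.7% in replicate 1, and Fgf11-201, from nearly the same start, held 13.2% in replicate 2 and 26.4% in replicate 1.

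A second deposited quantification of the same libraries, which gives estimated counts per transcript, kept the leading single transcript of all 4 genes. In Fgf13, however, the transcripts of the distal start together exceeded the leading one. There Fgf14-202 held 87.8% in replicate 2 and 87.4% in replicate 1, and Fgf12-205 held 49.0% in replicate 2 and 48.1% in replicate 1. Fgf13-201 stood there at 32.1% in replicate 2 and 34.5% in replicate 1, below the 43.8% in replicate 2 and 49.0% in replicate 1 of the distal start. The gene total of Fgf13 was 231 TPM in replicate 2 and 217 TPM in replicate 1 in that table, which is 1.97 times the gene table's value in replicate 2 and 1.79 times in replicate 1. For all detected protein-coding genes that factor had a median of 1.5 in replicate 2 and 1.46 in replicate 1.

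**Figure D2:**
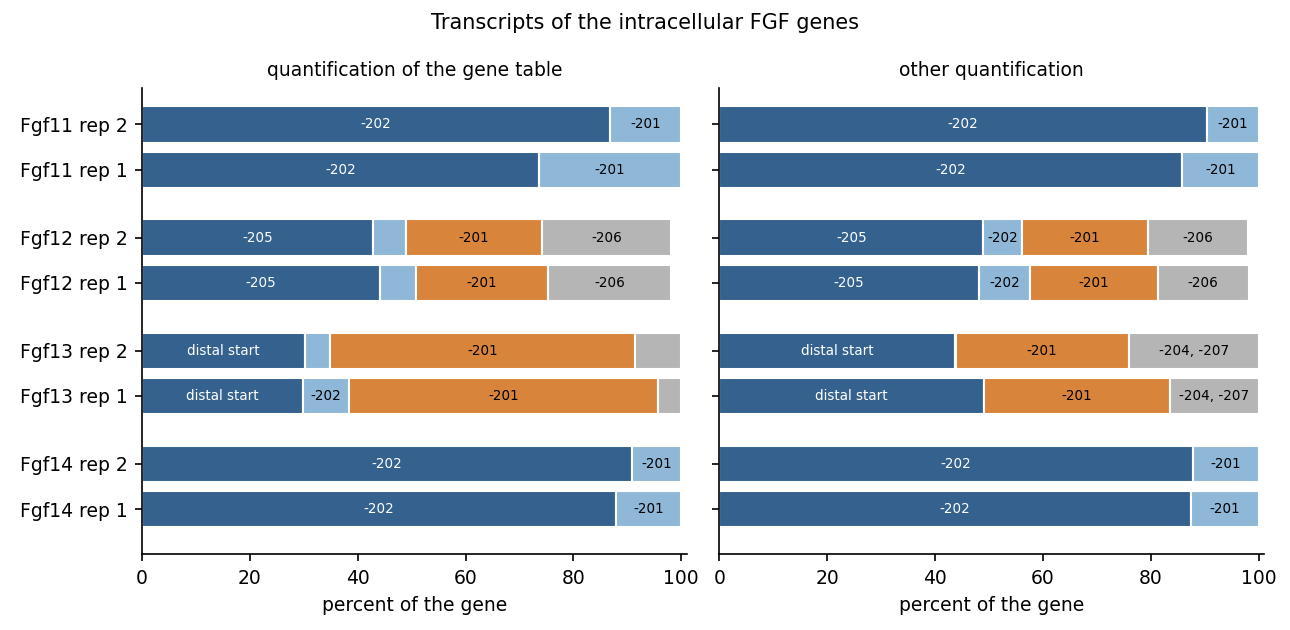
Percent of each intracellular FGF gene held by its transcripts, with replicate 2 above replicate 1, in the quantification of the gene table (left) and the other quantification (right). Orange marks the long first coding exon of Fgf12 and Fgf13. The distal start of Fgf13 overtakes Fgf13-201 in the right panel, while the bars of Fgf14 stay between 87.4% and 90.9% for Fgf14-202 in both.

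The secreted ligands were low, and 14 of 18 missed the detection level in at least 1 library. By the TPM of the gene table the FGF9 subfamily held the largest part of their TPM, 33.1% in replicate 2 and 36.0% in replicate 1. In replicate 2 this order depended on the quantification: the FGF9 subfamily summed to 7.58 TPM and the FGF1 subfamily to 8.62 TPM in the other quantification, and to 6.56 and 6.9 TPM as posterior mean TPM, a further estimate given in the gene table, while in replicate 1 the FGF9 subfamily was the higher in both. Fgf9 (ENSMUSG00000021974.15, chr14:58070547-58112720, plus strand), a ligand made by neurons and a mitogen for glia, was the highest in the gene table, with 4.99 TPM in replicate 2 and 5.89 TPM in replicate 1. In the other quantification Fgf1 lay above it in replicate 2, at 6.63 TPM against 6.46 TPM for Fgf9. Its relatives Fgf16 and Fgf20 averaged 0.8 ± 0.0566 and 0.815 ± 0.544 TPM (SD, n = 2). Fgf20 had 4 reads in replicate 2 and 10 in replicate 1, and 12% of its exon bases are shared with the opposite-strand gene Micu3, which stood at 28.4 TPM in replicate 2 and 26.8 TPM in replicate 1. Whether counting used strand is not given in the sources used here, so reads of such overlapping genes cannot be told apart.

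In the FGF8 subfamily, which patterns the early brain, Fgf18 was detected and the other two were not. Fgf18 (ENSMUSG00000057967.12, chr11:33117430-33147400, minus strand) stood at 3.76 TPM in replicate 2 and 4.21 TPM in replicate 1, from 69 reads in each. Fgf17, a patterning signal of the frontal cortex in the embryo, had 2 reads in replicate 2 and 5 in replicate 1. Fgf8, the organiser signal of the embryonic forebrain, had 0 reads in the gene table, which allows up to 0.19 TPM in replicate 2 and 0.215 TPM in replicate 1 at 3 counts. The other quantification nevertheless gave Fgf8 9 estimated counts (0.803 TPM) in replicate 2 and 10 (0.988 TPM) in replicate 1, so that an absence of Fgf8 cannot be read from these tables. This and other limits at 3 counts cover counting error only.

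The FGF7 subfamily was led by Fgf10 (ENSMUSG00000021732.14, chr13:118669791-118792115, plus strand), known from the cortex for the timing of radial glia formation. Fgf10 stood at 2.37 TPM in replicate 2 and 3.77 TPM in replicate 1. Fgf22, a presynaptic organiser, stood at 0.67 TPM in replicate 2 and 0.66 TPM in replicate 1. Fgf7, also a presynaptic organiser, and Fgf3 stayed under 0.4 TPM in each library, on 2 to 5 reads each.

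In the FGF1 subfamily, whose members lack a signal peptide, Fgf1 (chromosome 18) stood at 2.7 TPM in replicate 2 and 2.54 TPM in replicate 1. Fgf2 (ENSMUSG00000037225.13, chr3:37348346-37410108, plus strand), a mitogen of cortical progenitors, stood at 1.18 TPM in replicate 2 and 0.78 TPM in replicate 1, so by this TPM it reached the detection level in replicate 2 alone. It was above 1 TPM in both libraries as posterior mean TPM, with 2.33 TPM in replicate 2 and 2.15 TPM in replicate 1, and in the other quantification, with 1.99 TPM in replicate 2 and 1.37 TPM in replicate 1. Its reads ran the other way, with 68 in replicate 2 and 78 in replicate 1. The effective length assigned to Fgf2 was 2986 bases in replicate 2 and 5874 bases in replicate 1. TPM divides the reads by this length, which depends on the transcripts they were assigned to.

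The FGF4 and endocrine branches were under the detection level by the TPM of the gene table. Fgf5, a regulator of the hair cycle, was the highest of the FGF4 subfamily, with 0.86 TPM in replicate 2 and 0.65 TPM in replicate 1. It had 40 reads in replicate 2 and 21 in replicate 1. The other quantification put Fgf5 above 1 TPM in both libraries, at 1.26 TPM in replicate 2 and 1.37 TPM in replicate 1. As posterior mean TPM it stood at 1.03 in replicate 2 and 0.83 in replicate 1. Fgf6 had 0 reads in replicate 2 and 1 in replicate 1, and Fgf4 had 0 in both. Of the endocrine FGFs, which signal between organs, Fgf15 stood at 0.39 TPM in replicate 2 and 0.31 TPM in replicate 1, Fgf23 stood at 0.33 TPM in replicate 2 and 0.27 TPM in replicate 1, and Fgf21 had 0 reads in both. At 3 counts, the levels allowed are 0.183 TPM in replicate 2 and 0.207 TPM in replicate 1 for Fgf21, and 0.0965 TPM in replicate 2 and 0.109 TPM in replicate 1 for Fgf4. The endocrine co-receptors Kl and Klb, which these hormones need, were also under the detection level, Kl at 0.49 TPM in replicate 2 and 0.52 TPM in replicate 1 and Klb at 0.18 TPM in replicate 2 and 0.14 TPM in replicate 1.

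Several of the genes are neighbours. Fgf3, Fgf4 and Fgf15 lie in a row on chromosome 7, 2.93 kb and 31.3 kb apart, and Fgf6 and Fgf23 lie 44.7 kb apart on chromosome 6. All 5 were under the detection level. Fgf2 and Spry1 lie 230 kb apart on chromosome 3 with Spata5 between them, and Fgf1 and Spry4 lie 237 kb apart on chromosome 18 with no protein-coding gene between them. By the TPM of the gene table, the Sprouty gene had the higher level in each of these 2 pairs. For Fgf1 and Spry4 this order depended on the quantification in replicate 2. There Fgf1 was the higher in the other quantification, at 6.63 against 6.19 TPM, and as posterior mean TPM, at 4.57 against 4.2 TPM. In replicate 1 Spry4 was the higher in both.

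Of the receptors, Fgfr1, Fgfr2 and Fgfr3 stood between 18.4 and 29.7 TPM and Fgfr4 stayed below the detection level. Fgfr3 (ENSMUSG00000054252.18, chr5:33721674-33737068, plus strand), a receptor of cortical progenitors and astrocytes, stood at 23.7 TPM in replicate 2 and 29.7 TPM in replicate 1. Fgfr1 (ENSMUSG00000031565.18, chr8:25513654-25575718, plus strand), a receptor of progenitors and neurons, stood at 18.4 TPM in replicate 2 and 22.2 TPM in replicate 1. Fgfr2 (ENSMUSG00000030849.18, chr7:130162451-133123350, minus strand), a receptor of glia and progenitors, stood at 19.8 TPM in replicate 2 and 20.4 TPM in replicate 1. The ranges of Fgfr1 and Fgfr2 overlapped, and Fgfr3 lay above both in each library. Fgfr4 (ENSMUSG00000005320.9, chr13:55152640-55168759, plus strand) had 27 reads (0.48 TPM) in replicate 2 and 30 reads (0.55 TPM) in replicate 1.

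Of the summed TPM of these kinases, Fgfr3 held 39.4 ± 1.96%, Fgfr1 30.0 ± 0.617%, Fgfr2 29.9 ± 2.57% and Fgfr4 0.763 ± 0.00977% (SD, n = 2). The other quantification moved Fgfr3 to 45.8% and Fgfr2 to 24.0%, and kept Fgfr3 as the highest. There Fgfr3 stood at 53.8 TPM in replicate 2 and 51.0 TPM in replicate 1. Fgfrl1 (ENSMUSG00000008090.14, chr5:108692382-108706924, plus strand), which binds FGFs but lacks the kinase, stood at 5.57 TPM in replicate 2 and 8.65 TPM in replicate 1. Fgfr2 was the only member whose expected counts were not whole numbers within 0.005, with 926.8 in replicate 2 and 876.35 in replicate 1. Its annotated span runs into Ctbp2, a gene on the same strand that shares 3.04% of the Fgfr2 exon bases.

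The choice between exons IIIb and IIIc sets which ligands Fgfr1, Fgfr2 and Fgfr3 bind, since they encode the end of the third immunoglobulin-like loop. Epithelial cells typically use IIIb and mesenchymal and neural cells IIIc. The IIIb exons of Fgfr2 and Fgfr3, the receptors for which any IIIb transcript was listed above 0, are 148 and 151 bases long. They are shown because transcripts were sorted by the exon they hold, in lower case as no bases are marked.

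Fgfr2 IIIb: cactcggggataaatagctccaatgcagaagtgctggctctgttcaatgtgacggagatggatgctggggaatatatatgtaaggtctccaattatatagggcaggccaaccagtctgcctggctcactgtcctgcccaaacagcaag

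Fgfr3 IIIb: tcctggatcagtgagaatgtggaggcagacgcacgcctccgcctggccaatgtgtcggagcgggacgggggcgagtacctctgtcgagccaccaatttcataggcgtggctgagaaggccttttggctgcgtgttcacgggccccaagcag

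These lie at chr7:130199758-130199905 (minus strand) and chr5:33731281-33731431 (plus strand) in mm10. Transcripts with IIIc outweighed those with IIIb in each of these receptors. In Fgfr1, all of the TPM of transcripts with either exon was IIIc, 11.5 TPM in replicate 2 and 10.4 TPM in replicate 1, and the 2 IIIb transcripts were listed at 0 in both libraries and in both quantifications. In Fgfr2, IIIc took 83.0% in replicate 2 and 95.3% in replicate 1 (89.1 ± 8.75%, SD, n = 2). IIIb transcripts of Fgfr2 stood at 1.79 TPM in replicate 2 and 0.45 TPM in replicate 1. In Fgfr3, IIIc took 97.4% in replicate 2 and 100% in replicate 1. Transcripts with neither exon or with both, such as fragments and retained introns, held 37.6% of Fgfr1 in replicate 2 and 53.2% in replicate 1. For Fgfr2 they held 46.8% in replicate 2 and 52.8% in replicate 1, and for Fgfr3 29.7% in replicate 2 and 40.0% in replicate 1. In Fgfr2 they included Fgfr2-217, annotated as protein-coding with 546 coding bases and a start at chr7:133123350. Fgfr2-217 held 16.6% of the gene in replicate 2 and 16.3% in replicate 1.

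The other quantification gave IIIc the same 100% in Fgfr1 and 75.6% in replicate 2 and 86.2% in replicate 1 in Fgfr2. In Fgfr3 it gave 67.5% in replicate 2 and 75.5% in replicate 1. There Fgfr3-213, an annotated fragment of 668 bases that holds IIIb, stood at 6.92 TPM in replicate 2 and 6.93 TPM in replicate 1, while the gene table's quantification listed it at 0. Over transcripts with 2000 or more coding bases, a limit chosen after seeing the data, that quantification gave IIIc 89.2% in replicate 2 and 100% in replicate 1.

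**Figure D3:**
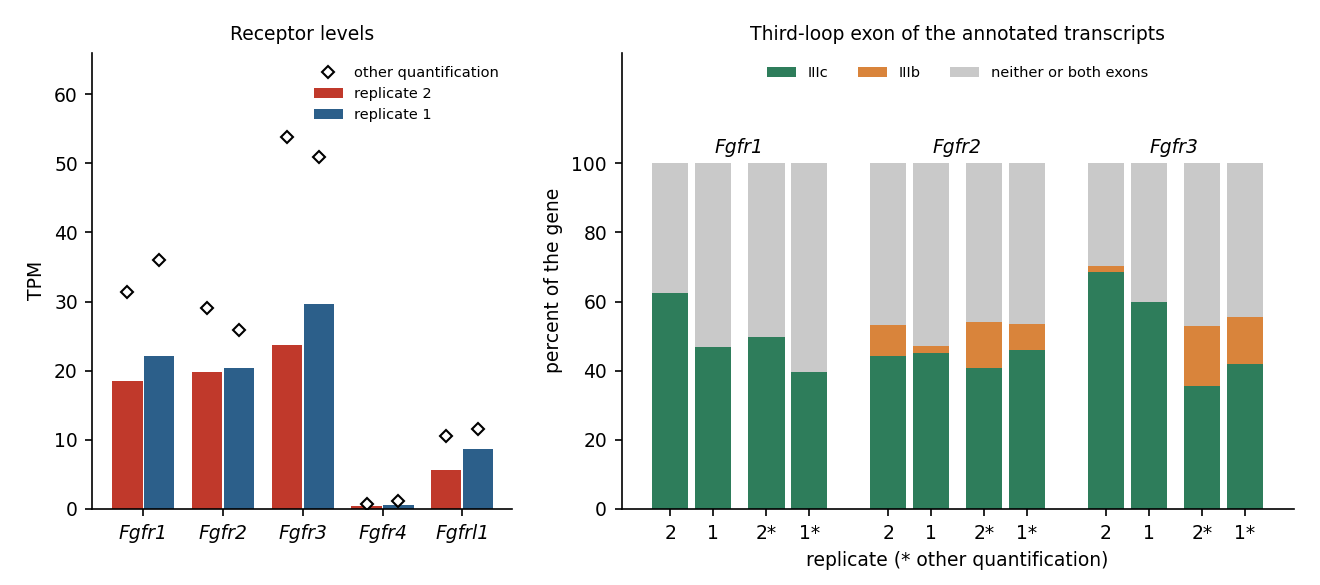
Left, TPM of the receptors in replicate 2 (red bars) and replicate 1 (blue bars), with open diamonds for the other quantification. Right, percent of each gene held by transcripts with exon IIIc (green), IIIb (orange), and neither or both (grey), with asterisks for the other quantification. IIIc exceeds IIIb in every bar, and no IIIb is listed in Fgfr1.

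The feedback inhibitors were all detected, and the Spred genes together stood above the Sprouty genes. The 3 Spred genes, which block the activation of Raf, summed to 67.2 TPM in replicate 2 and 69.8 TPM in replicate 1. The 3 Sprouty genes summed to 38.2 TPM in replicate 2 and 38.6 TPM in replicate 1. The log2 ratio of Sprouty over Spred was -0.82 in replicate 2 and -0.86 in replicate 1 (-0.84 ± 0.03, SD, n = 2), so Spred transcripts were 1.79-fold higher.

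Spred1 (ENSMUSG00000027351.14, chr2:117121374-117182279, plus strand), which recruits the Ras regulator neurofibromin, led with 28.1 TPM in replicate 2 and 29.1 TPM in replicate 1. Spred2 (ENSMUSG00000045671.17, chr11:19924375-20024026, plus strand) stood at 25.7 TPM in replicate 2 and 26.1 TPM in replicate 1. Spred3 (ENSMUSG00000037239.8, chr7:29158829-29170411, minus strand) was lower, with 13.4 TPM in replicate 2 and 14.7 TPM in replicate 1. Spry2 (ENSMUSG00000022114.5, chr14:105891947-105896819, minus strand), an inhibitor of receptor kinase signalling induced by FGFs, stood at 26.3 TPM in replicate 2 and 25.4 TPM in replicate 1. The range of Spry2 overlapped that of Spred2, and all other neighbours in the order of these 6 genes were separate. Spry1 (ENSMUSG00000037211.12, chr3:37639947-37644598, plus strand) stood at 7.52 TPM in replicate 2 and 7.8 TPM in replicate 1, and Spry4 (chromosome 18) at 4.34 TPM in replicate 2 and 5.32 TPM in replicate 1.

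In transcripts, Spred1-201 held 89.1% of Spred1 in replicate 2 and 91.8% in replicate 1. Spred2 was split between Spred2-202, with 58.9% in replicate 2 and 56.8% in replicate 1, and Spred2-201, with 40.4% in replicate 2 and 41.2% in replicate 1. The retained-intron transcript Spred3-202 held 16.8% of Spred3 in replicate 2 and 25.5% in replicate 1. The gene Spry3 is annotated on a separate scaffold, and its symbol was missing from the table that defined the members. It stood at 1.97 TPM in replicate 2 and 2.09 TPM in replicate 1, and counting it would make 19 genes detected.

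**Figure D4:**
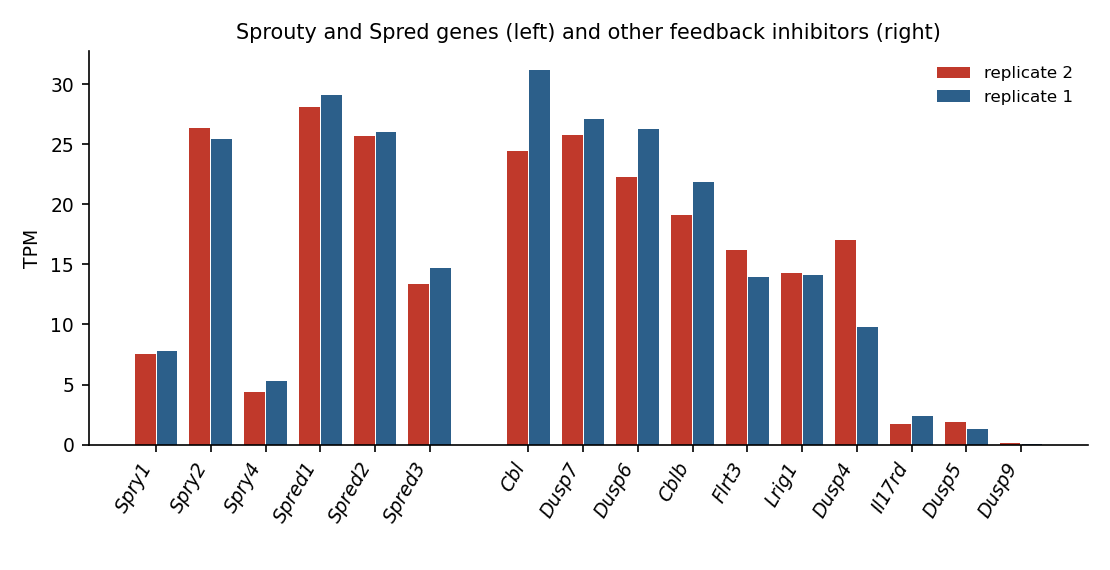
TPM of the Sprouty and Spred genes and of 10 genes of a list of other feedback genes in replicate 2 (red bars) and replicate 1 (blue bars). Flrt3 of that list is also counted among the co-receptors and binding proteins, so not all 10 are taken as inhibitors. Spred1, Spred2 and Spry2 stand between 25.4 and 29.1 TPM, near Cbl, Dusp7 and Dusp6, and Dusp4 is higher in replicate 2.

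Most genes of the 8 chosen pathway lists were detected. Of their 94 different genes, 90 reached the detection level, beside 59.4% of all protein-coding genes. The lists were chosen with earlier results of these data known, so how complete the pathway is cannot be read from this share. In the cell-surface group, 8 of 10 co-receptors and FGF-binding proteins were detected, with a median of 14.5 TPM over all 10. They were led by the adhesion molecules Ncam1 (525 TPM in replicate 2 and 520 TPM in replicate 1), L1cam (251 TPM in replicate 2 and 259 TPM in replicate 1) and Cdh2 (112 TPM in replicate 2 and 118 TPM in replicate 1), all known to interact with FGF receptors. Fgfbp1, a carrier of FGFs, was the lowest detected at 2.2 TPM in replicate 2 and 2.16 TPM in replicate 1.

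All 12 heparan sulfate proteoglycans and all 15 genes of heparan sulfate synthesis and editing were detected, with medians of 11.5 and 25.8 TPM. Sdc3, the syndecan of neurons, led the proteoglycans with 236 TPM in replicate 2 and 228 TPM in replicate 1, followed by Agrn and Gpc1, and Sdc4 was lowest at 5.41 TPM in replicate 2 and 4.78 TPM in replicate 1. Sulf2, which removes sulfate groups outside the cell, led the synthesis and editing genes with 81.2 TPM in replicate 2 and 76.6 TPM in replicate 1. Ndst1 and Extl3 came next, and Ndst4 was lowest at 2.63 TPM in replicate 2 and 2.75 TPM in replicate 1.

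Inside the cell, all 12 adaptors (median 19.8 TPM), all 16 genes of the Ras-ERK cascade (median 48.0 TPM) and all 10 target genes (median 11.9 TPM) were detected. In a list of other feedback genes, 9 of 10 were detected (median 14.6 TPM). That list holds Flrt3, a gene also counted among the co-receptors and binding proteins, so not all of its genes are taken as inhibitors. Frs2, the docking protein of FGF receptors, stood at 15.6 TPM in replicate 2 and 16.0 TPM in replicate 1. Grb2, Plcg1 and Shc3 led the adaptors. Etv1, Etv4 and Etv5, transcription factors induced by FGF signalling, stood at 30.2, 9.78 and 13.7 TPM in replicate 2 and at 26.2, 11.8 and 12.4 TPM in replicate 1. Dusp6, the ERK phosphatase that FGF signalling induces, stood at 22.3 TPM in replicate 2 and 26.3 TPM in replicate 1.

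Of 11 known partners of the intracellular FGFs, 10 were detected, with a median of 52.3 TPM. Scn2a, the main sodium channel of immature axons, led with 108 TPM in replicate 2 and 113 TPM in replicate 1. The channel subunit Scn3b followed with 86.7 TPM in replicate 2 and 88.0 TPM in replicate 1, and the scaffold Mapk8ip2, which binds Fgf12, with 79.8 TPM in replicate 2 and 77.3 TPM in replicate 1. Scn2b was the lowest detected at 6.51 TPM in replicate 2 and 8.93 TPM in replicate 1, and Scn4b missed the level.

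The number of FGF genes called different between the 2 libraries depended on how library sizes were scaled. It was 4 of 26 with TMM scaling, beside 26.7% of all genes, and 10 of 26 with spike-in scaling, beside 34.4%. A two-sided exact binomial test was run on the rounded counts of each gene with 10 or more counts in total, with library sizes scaled by edgeR's TMM method and Benjamini-Hochberg adjustment over all genes tested. It called 26.7% of 20365 annotated genes at an adjusted p under 0.05, 13.9% higher and 12.7% lower in replicate 2, and 29.7% of the protein-coding genes among them. It called 4 of the 26 members tested (15.4%), 2 higher and 2 lower. The other 7 members had under 10 counts. The median log2 ratio of replicate 2 over replicate 1 was -0.02 over the tested members and -0.0025 over all genes tested. All but 1 of the 26 lay within a 2-fold difference, and the same share over all genes was not taken. The exception was Fgf20 with its 4 and 10 reads (adjusted p = 0.251 by the exact binomial test). The test compares 2 libraries and not conditions, and its standard errors (SE) are of counting alone. An exact sign test over 2 samples cannot go below p = 0.5.

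Fgf12 was higher in replicate 2, with 2982 reads there and 2344 in replicate 1 (log2 ratio 0.24 ± 0.04 SE, adjusted p = 2.22e-08, exact binomial test). Fgf11 was lower in replicate 2, with 586 reads there and 708 in replicate 1 (log2 ratio -0.38 ± 0.08 SE, adjusted p = 3.33e-05). Fgf10 was lower in replicate 2 as well, with 183 reads there and 258 in replicate 1 (log2 ratio -0.60 ± 0.14 SE, adjusted p = 0.00016). Fgf10 alone among the 26 members tested was called with a log2 ratio of 0.58 or more either way, beside 1144 of all 20365 genes tested.

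Fgfr1 was the fourth gene called, and its direction depended on the unit. It had 1241 reads in replicate 2 and 995 in replicate 1 (log2 ratio 0.21 ± 0.06 SE, adjusted p = 0.00306, exact binomial test), yet its TPM was lower in replicate 2, with a log2 ratio of TPM of -0.26. The effective length assigned to Fgfr1 was 3494 bases in replicate 2 and 2639 bases in replicate 1, since TPM divides by the lengths of the transcripts to which reads were assigned. The other quantification showed the same split, with 1331 estimated counts and 31.4 TPM in replicate 2 and 1100 estimated counts and 36.0 TPM in replicate 1. Fgfr3 and Fgfrl1 had TPM ratios of -0.32 and -0.64 on the log2 scale beside count ratios of -0.02 ± 0.05 SE and -0.20 ± 0.13 SE, neither of which was called. With library sizes scaled by the spike-ins, the test called 34.4% of all genes tested, 30.8% as lower in replicate 2. It called 10 of the 26 members (38.5%), all lower, and Fgf12 (adjusted p = 0.0502) and Fgfr1 (adjusted p = 0.443, exact binomial test) were no longer called.

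**Figure D5:**
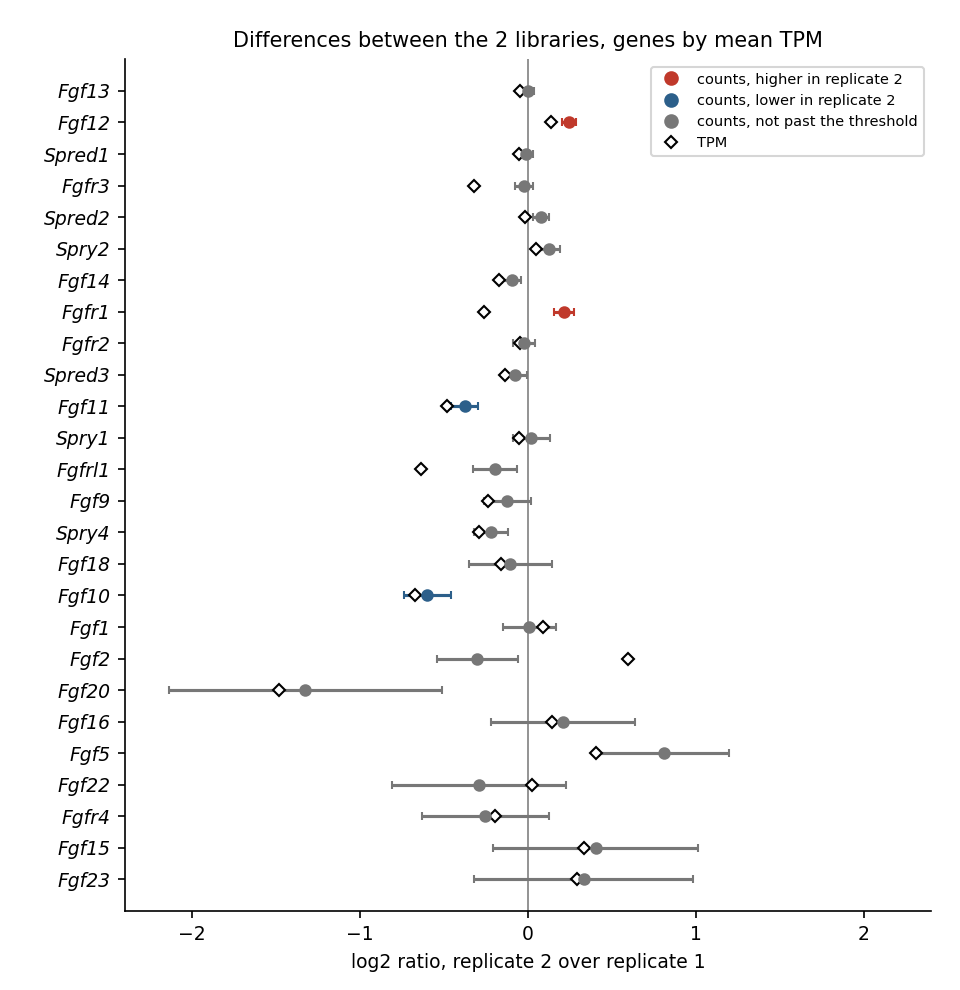
Log2 ratio of replicate 2 over replicate 1 for the 26 members tested, ordered by mean TPM, from counts (filled circles with 1 standard error) and from TPM (open diamonds). Fgf12 and Fgfr1 are called higher and Fgf11 and Fgf10 lower by counts. For 5 members, among them Fgfr1 and Fgf2, the circle and the diamond lie on opposite sides of 0.

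The pathway lists were compared with the same test. Dusp4, an ERK phosphatase of the feedback list, was higher in replicate 2, at 17.0 TPM there and 9.76 TPM in replicate 1 (log2 ratio 0.87 ± 0.08 SE, adjusted p = 3.27e-24, exact binomial test). The immediate early genes Fos and Egr1 were lower in replicate 2. Fos stood at 1.71 TPM in replicate 2 and 3.14 TPM in replicate 1 (log2 ratio -1.02), and Egr1 at 7.43 TPM in replicate 2 and 11.8 TPM in replicate 1 (log2 ratio -0.58). The glypican Gpc2 was lower in replicate 2 (log2 ratio -0.60), and Scn4b, at 0.6 TPM in replicate 2 and 0.35 TPM in replicate 1, was higher there (log2 ratio 0.83, adjusted p = 0.0464). Beside the 26.7% of all genes called, 13.9% higher and 12.7% lower, the counts by list were as follows. The test called 3 co-receptors and binding proteins higher and 1 lower of 10. It called 2 proteoglycans higher and 3 lower of 12, and 5 synthesis genes higher and 0 lower of 15. Among the adaptors 3 were higher and 2 lower of 12, and in the Ras-ERK cascade 4 were higher and 5 lower of 16. The list of other feedback genes had 2 higher and 2 lower of 9 tested, and the targets 1 higher and 4 lower of 10. The partners of intracellular FGFs had 3 higher and 4 lower of 11. Flrt3 (higher) and Dusp6 (lower) each count in 2 of these lists.

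Markers of some other tissue parts and cell types moved between the same libraries and others did not, and their part in these differences was not tested. The 6 striatal markers summed to 122 TPM in replicate 2 and 81.6 TPM in replicate 1, with 6 of 6 higher in replicate 2 by the same test. The 4 olfactory bulb markers summed to 40.0 TPM in replicate 2 and 7.99 TPM in replicate 1, with 4 of 4 higher. The 6 choroid plexus markers summed to 35.3 TPM in replicate 2 and 2.73 TPM in replicate 1, with 2 of 4 tested higher and most of the sum from Ttr. The 5 red blood cell markers summed to 456 TPM in replicate 2 and 215 TPM in replicate 1, with 5 of 5 higher. The 6 interneuron markers were 413 TPM in replicate 2 and 329 TPM in replicate 1 (5 of 6 higher), and the 5 excitatory neuron markers 496 TPM in replicate 2 and 560 TPM in replicate 1 (1 higher and 2 lower of 5). The 7 astrocyte and radial glia markers were 801 TPM in replicate 2 and 761 TPM in replicate 1 (6 of 7 higher), and the 6 meningeal markers 84.6 TPM in replicate 2 and 105 TPM in replicate 1 (4 of 6 lower). The 4 thalamus markers were 22.5 TPM in replicate 2 and 26.5 TPM in replicate 1, with 0 called. Of the microglia markers 0 of 6 were called, and of the liver and muscle markers 0 of 3 tested. Oligodendrocyte precursor markers had 2 higher and 3 lower of 5, and endothelial markers 0 higher and 2 lower of 5. Mural cell markers had 1 higher and 1 lower of 4, and myelinating oligodendrocyte markers 1 higher and 0 lower of 3 tested. No marker of these lists was at 0 in both libraries.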

How the data were processed

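Total RNA of 2 tissue samples was sequenced as 1 library each. Per the file headers, the gene table the authors deposited holds expected counts, effective lengths, TPM and posterior mean TPM per gene, and 1 transcript table holds the percent of a gene that each transcript takes. The other deposited transcript table holds estimated counts and TPM. The deposited notes name assembly mm10 and GENCODE annotation M21. The aligner was not given in the sources used here, nor were the quantifiers. Values were set against mm10, so the alleles of the 2 strains were not told apart.

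Members were matched by symbol, and 55450 of 55536 annotated genes had one. The members, gene lists and tests were chosen with earlier results of these data known. Spike-ins (97 rows) and 26248 rows with a numeric identifier stayed out of library sizes and tests. Levels are deposited TPM. Counts were rounded and tested with an exact binomial test (scipy 1.17.1) after TMM scaling in edgeR 4.0.16, with a prior count of 0.5 in ratios, and DESeq2 1.42.0 gave an alternative scaling. The test was tried on simulated counts with known folds and counting error alone, so that trial does not cover the spread between samples. Sequences come from the GENCODE M21 transcripts. Every member is named. Other genes named were taken from the 3 highest and the lowest detected gene of each list and from genes called with a log2 ratio of 0.58 or more, though not all of these are named. Others were chosen after their values were seen. Some genes and sequences are not reported here.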

Additional observations from a re-analysis of the deposited data

How the results depend on the processing

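The number of detected members, 18, ranged from 18 to 23 over all alternatives, and that of detected pathway genes from 87 to 91. The median level of the members, 3.24 TPM as the mean of the 2 library medians, moved to 5.74 TPM with the other quantification and to 6.09 TPM when TPM was rescaled over protein-coding genes. Posterior mean TPM moved the intracellular share of ligand TPM to 89.5%, the Fgfr1 share to 31.6% and the Fgfr4 share to 1.27%. The other quantification moved the shares of Fgfr2, Fgfr3 and Fgfr4 to 24.0%, 45.8% and 0.773%. The log2 ratio of Sprouty over Spred moved to -0.91 with it, to -0.79 with a pseudocount of 1 TPM and to -0.76 with Spry3 added, and kept its sign. The other transcript table moved IIIc in Fgfr3 to 71.5%, Fgf12-205 to 48.5% and Fgf13-201 to 33.3%, and a limit of 500 coding bases, chosen after seeing the data, moved Fgf12-205 to 58.2% and Fgf13-201 to 85.5%. Single levels moved beyond their SD for 29 of 33 members with the other quantification, by 1.31 to 2.02 times for those detected.

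Of the members, 4 were called under the alternatives run, except 5 with the estimated counts (Spred2 added) and 10 of 26 with spike-in scaling, which shifted all ratios by -0.15 on the log2 scale and called 34.4% of all genes. Under it 10.5% of called genes were higher in replicate 2, against 52.3% with TMM, 41.9% with total counts and 58.2% with DESeq2's size factors, and Fgf12 (adjusted p = 0.0502) and Fgfr1 (adjusted p = 0.443, exact binomial test) lost their calls. The cause was not tested. Leaving out a replicate moves a mean of 2 by less than its SD by construction, and leaves no test between libraries. No paired analysis was possible because there is 1 group. The 7 members with under 10 counts were left out of the test by the filter, and with no filter all 33 were tested and the same 4 were called.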
